A study of Mus musculus with 50 samples.

Results

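The genes of the aryl hydrocarbon receptor (AHR) pathway described here are Tiparp, Ahr, Ahrr, Arnt, Cyp1a1, Cyp1b1 and Nqo1. They were taken by symbol, 7 genes out of 58477 listed over the count tables of muscle and fat, and all 7 were present in each table. The genes were picked with the TG against WT differences of these same libraries in view, so those differences are given as a description without p-values. Where a member is said to be past the threshold or not in these differences, that is part of the description and no test of it. AHR is a transcription factor of the bHLH-PAS family that waits in the cytosol with HSP90 and its co-chaperones until a ligand, such as a dioxin or a tryptophan metabolite, binds it. It then enters the nucleus, pairs with ARNT and switches on genes such as Cyp1a1, Cyp1b1 and Nqo1. It also switches on its own brakes: AHRR, which competes for ARNT, and TIPARP, a mono-ADP-ribosyltransferase (also called PARP7) that modifies AHR and represses it.

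The libraries came from male mice carrying the chemogenetic receptor hM3DGq. Mice called TG were Gfral Cre-positive, so clozapine N-oxide (CNO) can drive neurons that express Gfral, and mice called WT were Cre-negative. Every mouse in every group had received CNO at 1 mg/kg, and no group without CNO was analysed here. Quadriceps muscle came from clamped mice (10 WT and 10 TG libraries), and perigonadal white adipose tissue (pgWAT) was taken 1 h (9 and 9) or 6 h (6 and 6) after CNO. The titles of the quadriceps libraries give no time after CNO. The labels give replicate numbers without saying that each is another mouse, so any p-value below measures the spread between libraries. Quadriceps libraries held 959980 to 2613672 gene counts, fat libraries of 1 h held 976610 to 4852560, and those of 6 h, the deepest, held 9150496 to 12883462. Levels are in CPM: each library's counts were brought to the same total with TMM scaling factors. A library without a count allows up to 3 counts, which is 1.15 to 3.13, 0.618 to 3.07 and 0.233 to 0.328 CPM in the respective sets, for counting error only. Tissue markers matched the labels: muscle markers summed to at least 28572 CPM in every quadriceps library, and adipocyte markers to at least 8218 CPM at 1 h and 28802 CPM at 6 h. At 1 h, 9 of the 18 libraries stood apart with transcripts of liver or duct epithelium, and in quadriceps WT 2 and WT 10 stood apart with inducible heat shock transcripts of 2796 and 1565 CPM. Quadriceps WT 2 also held liver transcripts at 250 CPM, against a WT median of 0.325 CPM and at most 3.91 CPM in TG.

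The promoters of 4 members are shown, chosen for the contrast in their levels in fat. Whether the sequences bear on those levels was not tested. Tiparp and Cyp1b1 were measured well in fat and were higher in TG fat at 6 h, while Ahrr and Cyp1a1 gave almost no reads. Each window, taken from RefSeq on GRCm38.p6, runs from 250 bases before to 50 bases after the annotated start and is written 5′ to 3′ along the gene. Capitals mark GCGTG, the core of the site that AHR with ARNT is known to bind, or CACGC, the same core on the other strand.
Tiparp: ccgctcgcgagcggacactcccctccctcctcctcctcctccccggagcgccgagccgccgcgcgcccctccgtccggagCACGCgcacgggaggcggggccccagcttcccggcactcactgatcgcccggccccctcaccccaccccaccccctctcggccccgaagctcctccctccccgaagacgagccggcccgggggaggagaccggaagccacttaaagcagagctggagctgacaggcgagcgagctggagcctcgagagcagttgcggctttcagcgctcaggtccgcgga
Cyp1b1: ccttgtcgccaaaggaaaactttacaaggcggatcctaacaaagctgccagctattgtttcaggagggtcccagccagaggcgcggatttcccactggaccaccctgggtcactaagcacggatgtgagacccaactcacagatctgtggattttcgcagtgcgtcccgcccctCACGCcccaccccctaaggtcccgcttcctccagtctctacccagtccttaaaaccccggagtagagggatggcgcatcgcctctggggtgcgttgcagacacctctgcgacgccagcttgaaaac
Ahrr: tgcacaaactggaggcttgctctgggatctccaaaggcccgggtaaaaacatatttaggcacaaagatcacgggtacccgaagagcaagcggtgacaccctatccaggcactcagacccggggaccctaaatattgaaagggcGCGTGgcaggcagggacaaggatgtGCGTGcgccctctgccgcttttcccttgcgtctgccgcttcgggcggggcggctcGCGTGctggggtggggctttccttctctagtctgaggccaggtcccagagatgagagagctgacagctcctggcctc
Cyp1a1: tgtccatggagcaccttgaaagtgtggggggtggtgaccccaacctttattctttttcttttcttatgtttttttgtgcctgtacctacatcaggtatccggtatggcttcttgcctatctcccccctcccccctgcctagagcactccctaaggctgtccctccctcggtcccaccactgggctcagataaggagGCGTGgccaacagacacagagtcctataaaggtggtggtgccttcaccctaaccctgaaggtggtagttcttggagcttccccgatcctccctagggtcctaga
The windows lie at chr3:65528197-65528496 (plus strand, Tiparp), chr17:79715012-79715311 (minus, Cyp1b1), chr13:74292282-74292581 (minus, Ahrr) and chr9:57697363-57697662 (plus, Cyp1a1). Matched by symbol, 6 of the 7 members had a window; Ahr had none. Tiparp held 1 core at -170 on the other strand, Cyp1b1 held 1 at -76 on the other strand and Cyp1a1 held 1 at -54. Ahrr held 3, at -107, -82 and -27. Arnt held 1 at -29, and the Nqo1 window held none. Over both strands, GCGTG was found in 32.4% of all 32851 windows, so the core is common in promoters. The longer form TNGCGTG, which contains the core, was found in 5.07% of windows and among the members only in Ahrr, at -29. Each match is a description of letters, and none of these libraries measured binding.

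Tiparp (ENSMUSG00000034640, chromosome 3, 65528410 to 65555518, positions on GRCm38 with GENCODE vM21) was the member with the largest difference between genotypes in muscle and in fat at 6 h. In quadriceps its WT level ran from 70.9 to 124 CPM with a median of 81.2, and its TG level from 118 to 256 CPM with a median of 195. The highest WT library, WT 10, was one of the pair rich in heat shock transcripts, and 9 of 10 TG libraries lay above it. The lowest, TG 4 at 118 CPM, fell inside the WT range. The means were 86.5 ± 16.7 and 193 ± 39.6 CPM (SD, n = 10 per genotype), 2.23 times higher in TG and a fitted log2 difference of 1.16 (SE 0.12). Without WT 2 and WT 10 the log2 difference was 1.25. Library numbers in the labels leave a remainder of 5 or 6 on division by 8 in this set. Within those subsets the log2 ratio of the means was 1.184 (6 WT, 6 TG) and 1.115 (4 WT, 4 TG), so it was similar in both.

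In fat at 1 h the Tiparp levels of the genotypes overlapped. WT libraries ran from 74.9 to 137 CPM with a median of 116, and TG libraries from 102 to 170 CPM with a median of 133. Of 9 TG libraries, 4 lay above the highest WT library and 5 within the WT range. The means were 112 ± 23.4 and 131 ± 22.7 CPM (SD, n = 9 per genotype), with a fitted log2 difference of 0.25 (SE 0.13) that was not past the threshold. Without the 9 libraries that held liver or duct transcripts, which left 3 WT and 6 TG, it was -0.03. Most of these libraries fell in one subset of library numbers (6 WT, 6 TG), where the log2 ratio of the means was 0.17. A further subset had 3 WT and 1 TG library and another held only TG libraries, so neither gives a replicated value.

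In fat at 6 h the genotypes did not overlap for Tiparp. WT libraries lay between 57.8 and 67.9 CPM with a median of 64.5, and TG libraries between 138 and 186 CPM with a median of 165, so every TG library exceeded every WT library. The means were 63.5 ± 4.07 and 163 ± 20.4 CPM (SD, n = 6 per genotype), 2.56 times higher in TG and a fitted log2 difference of 1.36 (SE 0.08). In raw counts this was 4262 over the 6 WT and 10853 over the 6 TG libraries. All TG libraries also lay above all WT libraries for 3.93% of the genes tested in this set. The muscle markers moved the same way as a sum, 20.3 to 49.5 CPM in WT and 60.7 to 118 CPM in TG fat. In each library 4 to 6 of the 6 markers had counts, but only 1 was high enough to be tested (log2 1.26). The sum is thus no measure of muscle markers in general, and its part in the Tiparp difference was not tested. For scale, the same sum was 28572 to 50190 CPM in quadriceps. TG 2, the fat library at 6 h with liver transcripts (1455 CPM), had 159 CPM of Tiparp, inside the range of the other TG libraries.

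**Figure D1:**
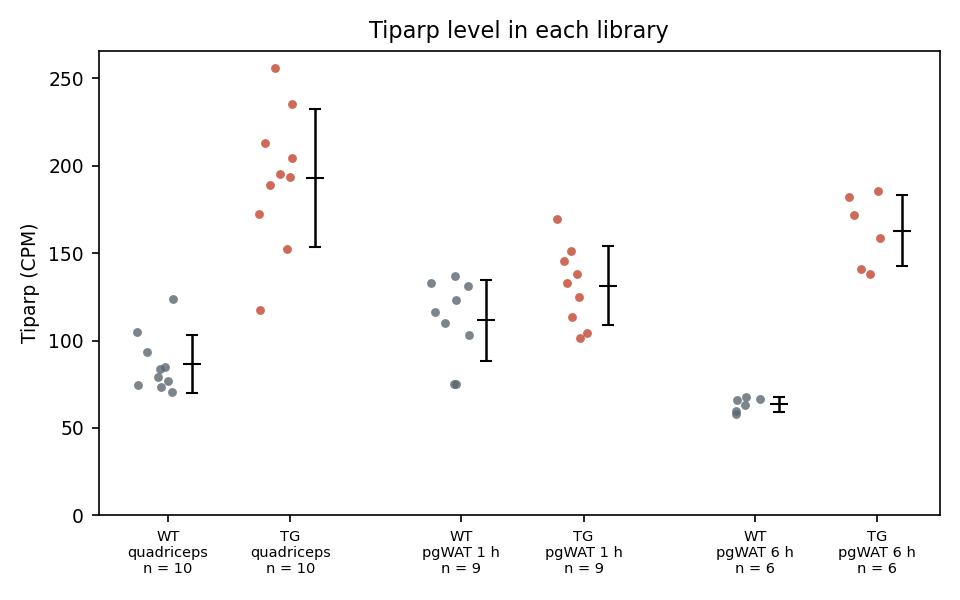
Tiparp level in CPM (y axis) in each library (points), by set and genotype, with the group mean and SD. TG lay at 118 to 256 CPM against 70.9 to 124 CPM in WT quadriceps, at 102 to 170 against 74.9 to 137 CPM in fat at 1 h, and at 138 to 186 against 57.8 to 67.9 CPM in fat at 6 h, where the groups did not overlap.

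Tiparp was past the threshold (edgeR adjusted p under 0.05) and higher in quadriceps, 1 of 3 members tested, where 1.09% of 8070 genes were called higher and 0.942% lower. It was called higher in fat at 6 h, where 6.88% of 14359 genes were called higher and 7.54% lower. In fat at 1 h none of the 5 members tested was called; there 0.0541% of 11087 genes were called higher, 6 in all, and 0.0180% lower, 2 in all. DESeq2 called 19 genes at 1 h and no member, and no member had an unadjusted p under 0.05 in edgeR. That limit was met by 11.7% of genes in quadriceps, 4.62% in fat at 1 h and 26.6% in fat at 6 h. Since the members were chosen from these contrasts, nothing is read from these counts. Leaving out 1 library at a time gave a Tiparp log2 difference of 1.11 to 1.23 in quadriceps (20 fits). The same gave 1.32 to 1.40 in fat at 6 h (12 fits). At 1 h the range was 0.19 to 0.29 (18 fits). These refits use the libraries Tiparp was picked on, so they show only how far single libraries moved the value.

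The genotype difference of Tiparp was larger at 6 h than at 1 h in fat by 1.11 on the log2 scale (SE 0.17), and larger in quadriceps than in fat at 1 h by 0.92 (SE 0.18). Both values come from the contrasts the members were chosen on and are descriptions. Over all genes, 1.87% of 13022 were called higher and 2.33% lower between the times in fat, and 0.182% of 11009 higher and 0.0908% lower between quadriceps and fat. For the other members the differences between the times were 0.32 (SE 0.36) for Cyp1b1, -0.01 (SE 0.17) for Arnt, -0.54 (SE 0.32) for Nqo1 and -0.63 (SE 0.30) for Ahr. Both interactions share the fat libraries of 1 h. The libraries of 6 h were made with a kit without molecular identifiers while those of 1 h had them, so the kit and the time cannot be told apart. The same holds for the WT level of Tiparp, which was 112 CPM at 1 h and 63.5 CPM at 6 h in tables scaled separately. Quadriceps and fat differ likewise in tissue and clamp together, and perhaps in time after CNO, which the quadriceps titles do not give.

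The gene next to Tiparp on the other strand, the pseudogene 4931440P22Rik, overlaps it by 970 bases. The strand setting of the counting is not given in the sources used here, so reads of the pair cannot be told apart where they overlap. The pseudogene had 164 counts in WT and 291 in TG fat at 6 h, few beside the Tiparp counts, and it was too low to be tested in quadriceps (17 and 22 counts) and in fat at 1 h (49 and 61).

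Ahr (ENSMUSG00000019256, chromosome 12, 35497974 to 35535038), the ligand-binding receptor itself, was low in all sets. In quadriceps it had 50 counts over the 10 WT and 36 over the 10 TG libraries, 3.87 ± 1.75 and 3.005 ± 1.80 CPM (SD), which was below the limit for testing. In fat at 1 h it ran from 8.86 to 15.3 CPM in WT (median 10.8) and from 5.31 to 25.4 CPM in TG (median 14.2), and 6 of 9 TG libraries lay within the WT range. The means were 11.7 ± 2.31 and 14.6 ± 5.56 CPM, a fitted log2 difference of 0.33 (SE 0.20). At 6 h it ran from 5.54 to 14.1 CPM in WT (median 7.82) and from 5.40 to 8.75 CPM in TG (median 6.61). The means there were 8.51 ± 2.98 and 6.85 ± 1.40 CPM, and the log2 difference was -0.30 (SE 0.20). It was -0.10 without WT 3, the library at 14.1 CPM, and -0.40 without WT 4. At 1 h it was 0.21 without TG 9 and 0.42 without TG 5. Neither time was past the threshold, which is a description only, and the genotypes overlapped at both.

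Arnt (ENSMUSG00000015522, chromosome 3, 95434388 to 95497240), the shared partner of AHR and of hypoxia-inducible factors, had nearly equal levels in the genotypes everywhere. Its means were 29.3 ± 6.31 in WT and 28.0 ± 5.11 CPM in TG quadriceps. In fat they were 38.8 ± 8.47 and 38.3 ± 6.25 CPM at 1 h, and 44.3 ± 5.31 and 43.5 ± 4.18 CPM at 6 h. The log2 differences were -0.06 (SE 0.13), -0.02 (SE 0.13) and -0.02 (SE 0.09). All 10 TG libraries in quadriceps, 8 of 9 at 1 h and 5 of 6 at 6 h lay within the WT range.

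Ahrr (ENSMUSG00000021575, chromosome 13, 74211118 to 74292331), the repressor that competes with AHR for ARNT, was hardly detected, and it was tested in none of the sets. In quadriceps it had 0 counts over 10 WT libraries, which allows up to 0.230 CPM over the group, and 1 count over 10 TG libraries. In fat it had 12 counts in WT and 14 in TG at 1 h, and 26 and 29 at 6 h, where each library had at least 1 count. Summed over the libraries of a genotype and without TMM scaling this was 0.396 CPM in WT (exact Poisson interval 0.259 to 0.580) and 0.425 (0.285 to 0.611) in TG fat at 6 h. These intervals, which cover counting error only, overlap, and no difference in Ahrr was detectable at this depth.

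Cyp1a1 (ENSMUSG00000032315, chromosome 9, 57687928 to 57703824), the cytochrome P450 gene most used as a readout of AHR, was near 0 as well. It had 10 counts in WT and 12 in TG quadriceps, 5 and 3 in fat at 1 h, and 10 and 17 in fat at 6 h. Summed in the same way, this was 0.152 CPM (exact Poisson interval 0.0730 to 0.280) and 0.249 CPM (0.145 to 0.399) at 6 h. No library had more than 8 counts, and TG 3 and TG 6 at 6 h, with 8 and 6, were the highest. Levels at or near the limit for a count of 0 carry no order between genotypes.

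Cyp1b1 (ENSMUSG00000024087, chromosome 17, 79701537 to 79715061), a P450 of steroid and fatty acid metabolism that AHR also induces, was the P450 of this set that could be followed. In fat at 6 h WT libraries ran from 24.2 to 36.2 CPM with a median of 28.0, and TG libraries from 32.2 to 50.1 CPM with a median of 40.8. Of 6 TG libraries, 4 lay above the highest WT library. The means were 28.9 ± 4.58 and 40.4 ± 6.50 CPM (SD, n = 6 per genotype), a fitted log2 difference of 0.48 (SE 0.12). It was called higher, so with Tiparp 2 of the 5 members tested were called, beside 6.88% of all genes called higher. The members were chosen from this contrast, so nothing is read from that count. Leaving out 1 library at a time gave a log2 difference of 0.41 to 0.56 (12 fits). Fibroblast and preadipocyte markers summed to 2711 to 3234 CPM in these WT and 2867 to 3715 CPM in these TG libraries, with overlap, and their part was not tested. In bulk tissue, more cells of a type and more RNA per cell cannot be told apart.

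In fat at 1 h Cyp1b1 had the widest spread of the members tested. WT libraries ran from 26.1 to 78.5 CPM (median 31.9) and TG libraries from 21.1 to 93.3 CPM (median 33.0). The high libraries were WT 9 (78.5 CPM), TG 8 (69.8 CPM) and TG 9 (93.3 CPM). The same libraries held fibroblast and preadipocyte markers at 4471, 4311 and 7548 CPM, against group medians of 2904 in WT and 2906 in TG. Their mesothelial markers were at 271, 514 and 520 CPM, against medians of 96.5 and 191. WT 9 was also among the 9 libraries with liver or duct transcripts, while TG 8 and TG 9 were not. It had duct markers at 230 CPM (WT median 15.8) and the lowest adipocyte markers of the set (8218 CPM). The part of any of these cells in the Cyp1b1 level was not tested. The means were 38.8 ± 17.0 and 43.5 ± 23.8 CPM, a log2 difference of 0.17 (SE 0.29). Leaving out single libraries gave -0.03 to 0.40, so the sign rested on single libraries. In quadriceps Cyp1b1 was below the limit for testing, with 134 counts in WT and 72 in TG. Its levels there were 10.1 ± 2.81 and 6.00 ± 2.64 CPM (SD, n = 10), and 5 of 10 TG libraries lay below the lowest WT library. The direction in muscle was thus the opposite of that in fat at 6 h, on few counts and without a test.

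Nqo1 (ENSMUSG00000003849, chromosome 8, 107388225 to 107403206), a quinone reductase that both AHR and NRF2 induce, was not past the threshold in any set. As for the other members, this is a description only. The muscle means were 23.0 ± 5.15 CPM for WT and 25.7 ± 8.03 CPM for TG, with a log2 difference of 0.15 (SE 0.16), which was 0.06 without TG 5 and 0.23 without TG 2. In fat it was at 4.92 ± 1.58 and 5.41 ± 1.49 CPM at 1 h (0.19, SE 0.22), and at 4.37 ± 1.07 and 3.41 ± 0.925 CPM at 6 h (-0.36, SE 0.23). At 6 h, where Tiparp and Cyp1b1 were higher in TG, Nqo1 was on the other side of 0 (-0.48 to -0.24 without single libraries), with 5 of 6 TG libraries inside the WT range.

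**Figure D2:**
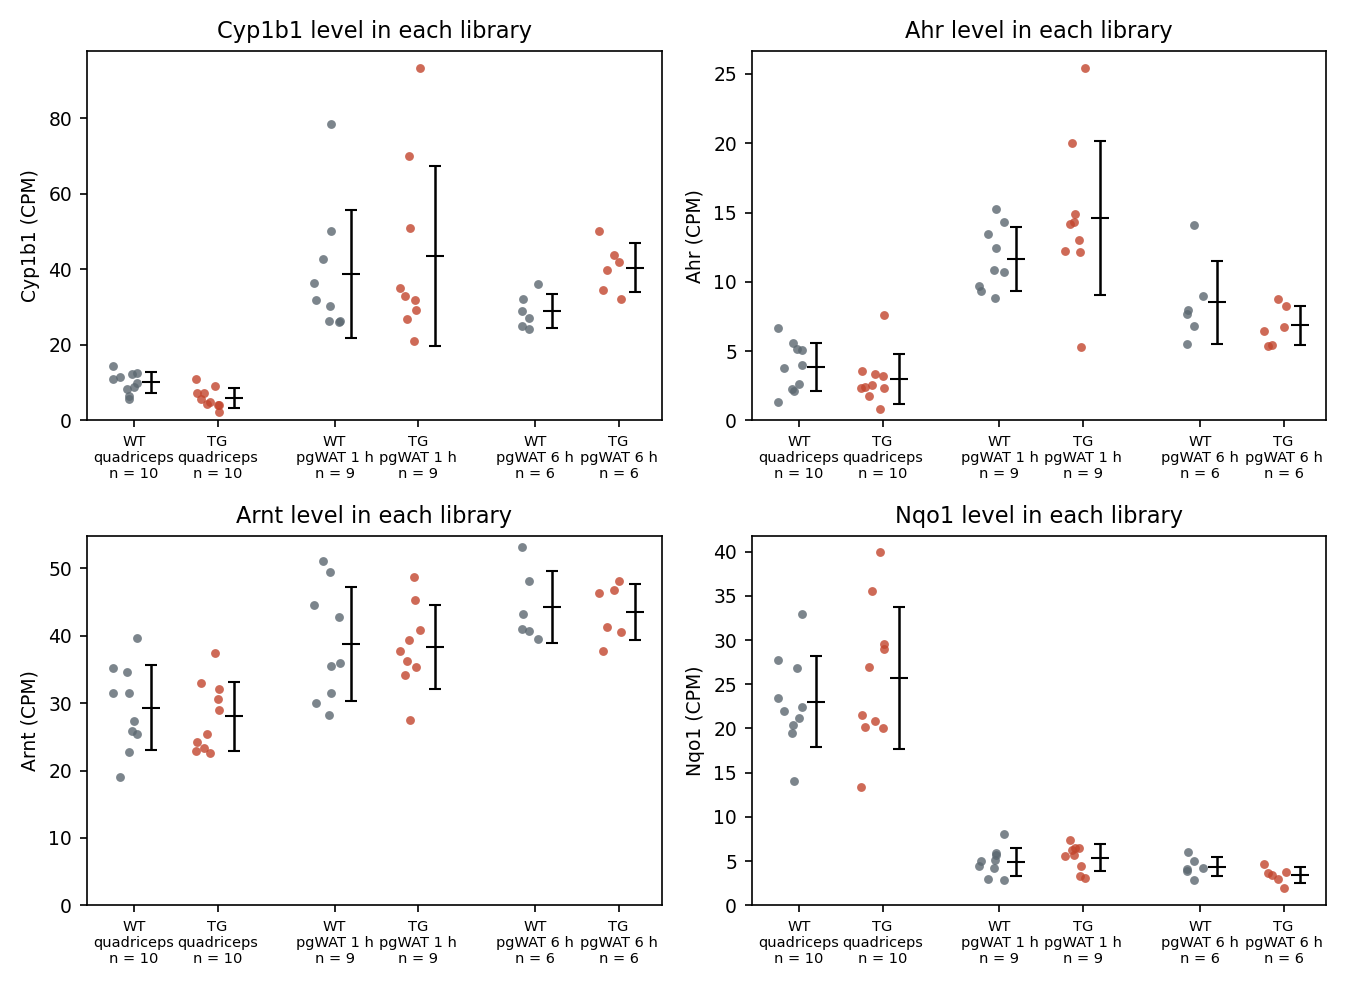
Levels in CPM (y axis, one panel per gene) of Cyp1b1, Ahr, Arnt and Nqo1 in each library (points) by set and genotype, with group mean and SD. Cyp1b1 at 6 h ran from 24.2 to 36.2 CPM in WT and from 32.2 to 50.1 CPM in TG, while the genotypes overlapped broadly for Arnt in all sets.

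Over the members that could be tested, the median log2 difference was 0.15 in quadriceps (3 members), 0.19 in fat at 1 h (5) and -0.02 in fat at 6 h (5). The medians over all genes tested were -0.00, 0.01 and 0.00. At 6 h 2 members were higher and past the threshold. The 3 that lay below 0, Ahr, Arnt and Nqo1, were not past it. Arnt ran from -0.06 to 0.03 without single libraries. No common or opposite direction of the members is read from these signs.

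**Figure D3:**
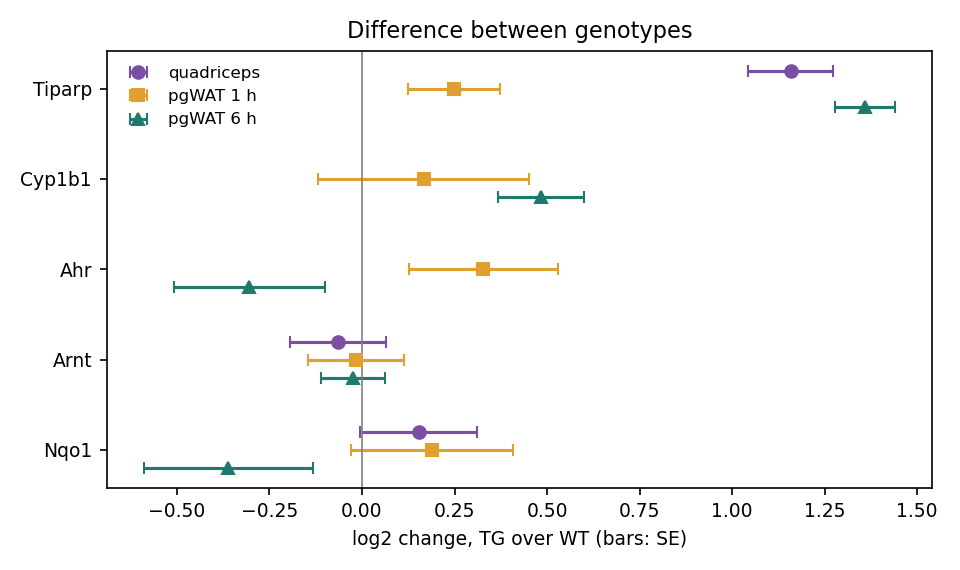
Fitted log2 difference of TG against WT (x axis) with its SE (bars) for the members tested in each set. Tiparp lay at 1.16 in muscle, and in fat at 0.25 at 1 h and 1.36 at 6 h, and Cyp1b1 at 0.48 at 6 h, while Arnt lay between -0.06 and -0.02 throughout.

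Other genes of the pathway were read from lists, and for these edgeR's test is given. The choice of members did not use them, but the lists were drawn up with earlier results of these libraries known. Their p-values are therefore not those of lists fixed in advance. Their counts stand beside shares over all genes of 1.09% higher and 0.942% lower in quadriceps, 0.0541% and 0.0180% in fat at 1 h, and 6.88% and 7.54% in fat at 6 h. Of 13 other AHR targets, 0 were high enough to be tested in quadriceps, 2 in fat at 1 h and 4 in fat at 6 h (Vav3, Slc7a5, Cyp2s1 and Lpcat2). None passed at either time in edgeR, and none had an unadjusted p under 0.05 there. Their log2 differences at 6 h were -0.08 (SE 0.11) for Vav3, a signalling exchange factor, 0.56 (SE 0.44) for the amino acid transporter gene Slc7a5, -0.39 (SE 0.39) for the P450 gene Cyp2s1 and -0.21 (SE 0.26) for the phospholipid enzyme gene Lpcat2. Cyp1a2, an AHR target of liver, was not tested in any set. All 214 counts at 6 h were in TG 2, and at 1 h 330 of the 331 TG counts were in TG 3, the library with 9255 CPM of liver transcripts.

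HSP90, encoded by Hsp90aa1 and Hsp90ab1, holds AHR in the cytosol with the co-chaperone encoded by Ptges3, and these 3 genes passed in none of the sets in edgeR. In quadriceps Hsp90aa1 (-0.79, SE 0.31) and Ptges3 (-0.26, SE 0.09) had an unadjusted p under 0.05, with edgeR adjusted p-values of 0.272 and 0.145, and each was below the WT mean in 10 of 10 TG libraries. The WT level of Hsp90aa1 was 147 ± 117 CPM (SD) and ran from 74.3 to 460 CPM, against 55.1 to 113 CPM in TG. The genotypes thus overlapped, and with so wide a WT spread a count below the WT mean says little for Hsp90aa1. The heat shock transcripts of WT 2 and WT 10 stood beside the Hsp90aa1 value, and their part was not tested. In fat none of these genes had an unadjusted p under 0.05 at either time.

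Other bHLH-PAS factors share the fold and in part the partner of AHR. At 6 h in fat 3 of 10 tested rose and 1 fell, with a list median of 0.25. Hif3a, a hypoxia-inducible factor subunit, rose from 2.63 ± 0.840 to 9.03 ± 2.56 CPM (log2 1.78, SE 0.24, edgeR adjusted p = 7.13e-05, above the WT mean in 6 of 6 TG libraries). The coactivator gene Ncoa1 rose from 67.9 ± 4.19 to 94.5 ± 10.9 CPM (0.48, edgeR adjusted p = 3.39e-04) and the clock gene Clock from 82.7 ± 7.34 to 99.3 ± 3.63 CPM (0.26, edgeR adjusted p = 0.00850), each above the WT mean in 6 of 6. The gene that fell was Arntl2 (-0.75, edgeR adjusted p = 0.0479); its level was under 5 CPM and it is named after its value was seen. In quadriceps and in fat at 1 h, 0 of 8 passed in edgeR, with 2 and 1 at an unadjusted p under 0.05.

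Tiparp belongs to the PARP family, and its relatives were read together with the hydrolases that remove mono-ADP-ribose. Of 20 tested in fat at 6 h, 4 fell and 1 rose, and the list median was -0.08. Parp14 fell from 51.5 ± 11.4 to 33.3 ± 2.81 CPM (-0.62, SE 0.12, edgeR adjusted p = 0.00123) and Parp16, an enzyme of the endoplasmic reticulum, fell by 0.48 on the log2 scale (edgeR adjusted p = 0.0122), both below the WT mean in 6 of 6 TG libraries. Parp12 (-0.37, edgeR adjusted p = 0.0393) fell and the hydrolase gene Adprhl2 (0.26, edgeR adjusted p = 0.0494) rose, and both calls were lost with no filter on low counts (0.0504 and 0.115). The 4th that fell was Parp10 (-0.44, edgeR adjusted p = 0.0495), named after its value was seen. Lymphocyte markers were lower in the same TG libraries, with a sum of 4.51 to 10.7 CPM (median 6.84) against 8.22 to 24.6 CPM (median 14.6) in WT. Of these markers 5 or 6 of 6 had counts in each library, 0 of 4 tested lay above 0 (median -0.87) and 1 was called lower, and their part in the PARP values was not tested. None of 13 in quadriceps and none of 18 in fat at 1 h passed in edgeR, with 1 and 0 at an unadjusted p under 0.05. The Parp14 difference was lower at 6 h than at 1 h by 0.65 on the log2 scale (SE 0.18, edgeR adjusted p = 0.0293). That call was lost with no filter (0.0525), and kit and time cannot be told apart in it.

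Genes of kynurenine metabolism make or break down tryptophan-derived AHR ligands. In fat at 6 h 1 of 7 rose, Kyat1, a kynurenine aminotransferase, from 7.91 ± 1.91 to 15.1 ± 1.42 CPM (0.94, SE 0.15, edgeR adjusted p = 2.61e-04, above the WT mean in 6 of 6 TG libraries). None of 3 in quadriceps and none of 5 in fat at 1 h passed in edgeR or had an unadjusted p under 0.05.

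NRF2, encoded by Nfe2l2, is the other factor that drives Nqo1. In quadriceps 2 of 20 genes of its pathway fell and 0 rose. Osgin1, a growth inhibitor induced by oxidative stress, fell from 17.7 ± 5.22 to 8.15 ± 2.50 CPM (-1.09, SE 0.19, edgeR adjusted p = 3.68e-04) and Nfe2l2 from 127 ± 28.0 to 97.4 ± 13.3 CPM (-0.38, SE 0.11, edgeR adjusted p = 0.0493), both below the WT mean in 10 of 10 TG libraries. Without WT 2 and WT 10 Osgin1 kept its call (-0.93, edgeR adjusted p = 0.00311) and Nfe2l2 did not (-0.28, edgeR adjusted p = 0.195). At 6 h in fat 1 of 24 rose, the small MAF gene Mafk (0.45, edgeR adjusted p = 0.00487, above the WT mean in 6 of 6). At 1 h 0 of 24 passed in edgeR or had an unadjusted p under 0.05.

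Targets of hypoxia-inducible factors, which compete with AHR for ARNT, were split. Of 15 tested in fat at 6 h, 3 rose and 2 fell. The clock repressor gene Bhlhe40 fell from 40.7 ± 11.6 to 11.1 ± 1.84 CPM (-1.87, SE 0.18, edgeR adjusted p = 7.38e-06) and Pfkfb3, which makes an activator of glycolysis, from 670 ± 85.6 to 270 ± 90.6 CPM (-1.31, SE 0.19, edgeR adjusted p = 6.16e-04), both in 6 of 6. Ndrg1, a stress-induced differentiation gene, rose by 0.55 and Bnip3, a mitophagy receptor gene, by 0.42 (edgeR adjusted p = 0.00684 and 0.00930, each above the WT mean in 5 of 6). The third to rise was the glucose transporter gene Slc2a1 (0.45, edgeR adjusted p = 0.0326), named after its value was seen. In quadriceps Pfkfb3 was the single call of 13, and it rose from 55.5 ± 10.9 to 113 ± 35.4 CPM (1.00, SE 0.16, edgeR adjusted p = 5.09e-04, above the WT mean in 10 of 10). Pfkfb3 thus rose in muscle and fell in fat at 6 h, where Tiparp was higher in TG in both; muscle was not tested against fat at 6 h. The interactions passed for Bhlhe40 (-1.88, edgeR adjusted p = 1.36e-05) and Pfkfb3 (-1.22, edgeR adjusted p = 0.00509) between the times in fat, and for Pfkfb3 between quadriceps and fat at 1 h (1.11, edgeR adjusted p = 0.0327). The last of these was lost with no filter (0.122). Kit and time cannot be told apart between the times in fat, nor can tissue and clamp between quadriceps and fat. At 1 h 0 of 13 passed in edgeR, with 1 at an unadjusted p under 0.05. A list from outside the pathway held 14 glucocorticoid-induced genes and was also drawn up with earlier results of these libraries known. Of these genes 6 rose and 1 fell in quadriceps, beside 1.09% and 0.942% of all genes. At 1 h 1 of 13 tested rose, beside 0.0541%, and at 6 h 14 of 14 rose, beside 6.88%. Their part in the differences above was not tested.

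The rule for the members did not use muscle against fat, although its WT libraries also entered the contrasts that did, and earlier results of them were known. The comparison was tested in WT libraries of quadriceps (n = 10) and of fat at 1 h (n = 9), made with the same kit and scaled together for this comparison. The quadriceps came from clamped mice at a time after CNO that the titles do not give. Tissue, clamp and any difference in time thus cannot be told apart here. Of the fat libraries, WT 2, 5, 6, 7, 8 and 9 held liver or duct transcripts, and no fit without them is given. Nqo1 was the member that differed most, at 29.6 ± 6.67 CPM in quadriceps and 3.76 ± 1.19 CPM in fat. Its lowest quadriceps library (18.05 CPM) lay above its highest fat library (6.09 CPM), a separation that 25.7% of genes showed. The log2 difference was 2.93 (SE 0.18, edgeR adjusted p = 1.81e-14). Cyp1b1 went the other way, at 12.97 ± 3.60 CPM in quadriceps and 29.6 ± 12.9 CPM in fat, with all 10 quadriceps libraries below the lowest fat library, a separation that 23.0% of genes showed (-1.24, SE 0.23, edgeR adjusted p = 1.72e-05). Ahr was lower in quadriceps too, at 4.96 ± 2.23 against 8.92 ± 1.75 CPM, and 8 of 10 quadriceps libraries lay below the lowest fat library (-0.91, SE 0.23, edgeR adjusted p = 7.39e-04).

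Tiparp and Arnt differed less, and their direction depended on the scaling. Tiparp was at 111 ± 21.9 CPM in quadriceps and 85.2 ± 17.4 CPM in fat (0.36, SE 0.12, edgeR adjusted p = 0.00855), with 5 of 10 quadriceps libraries above the highest fat library. Arnt was at 37.6 ± 8.14 and 29.6 ± 6.23 CPM (0.33, SE 0.14, edgeR adjusted p = 0.0292). With library totals and no scaling factors the values became -0.41 for Tiparp and -0.43 for Arnt, while the median over all genes moved from -0.00 to -0.77. Relative to that median both stayed above it. The Arnt call was also lost with DESeq2 (adjusted p = 0.0716). Nqo1 (2.16), Cyp1b1 (-2.02) and Ahr (-1.66) kept direction and call. Ahrr, with 0 counts in quadriceps, and Cyp1a1 were not tested.

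Most genes differ between these tissues: 80.8% of 10319 were called, 40.2% higher and 40.6% lower in quadriceps, so the 5 of 5 members called stand near the background. Without scaling factors 2141 were higher and 6608 lower. Among the other genes of the pathway, Hsp90ab1 (1.5) and Ptges3 (0.84) were higher in quadriceps, and the call of Ptges3 was lost without scaling factors. The AHR target Vav3 was lower (-2.18). Of 8 bHLH-PAS genes 4 were higher and 2 lower, with Sim2 (5.13) and Ncoa3 (0.63, but -0.14 without scaling factors) higher and Hif1a (-1.51) and Clock (-1.09) lower. Of 3 kynurenine genes Kyat1 was higher (1.59) and Aox1 (-1.18) and Kyat3 (-0.77) were lower. Of 24 NRF2 pathway genes 10 were higher and 9 lower. The NRF2 inhibitor gene Keap1 (1.51) was higher, and the pentose phosphate enzymes G6pdx (-3.63) and Pgd (-3.40) and the glutathione transferase gene Gsta3 (-5.29) were lower. The PARP list had 8 higher and 8 lower of 18, with Macrod1 (4.39), Macrod2 (1.68) and Tnks2 (1.16) higher and Parp14 (-1.93) lower. Of 14 hypoxia targets 8 were higher and 3 lower, with Egln3 (3.99), Egln1 (2.40) and Ldha (2.01) higher and Pfkfb3 (-2.56) lower.

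**Figure D4:**
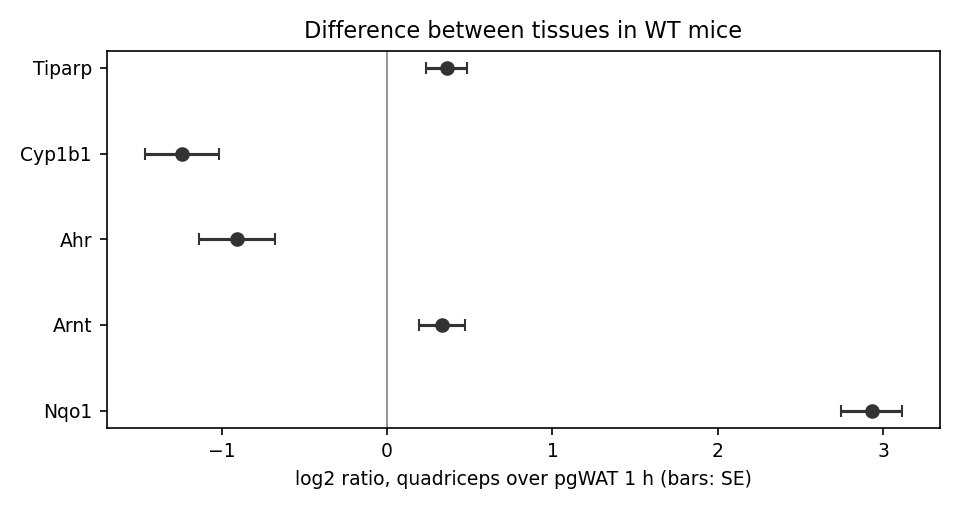
Log2 ratio of quadriceps over pgWAT at 1 h (x axis) in WT libraries, with the SE (bars), for the 5 members tested. Nqo1 lay at 2.93, Cyp1b1 at -1.24 and Ahr at -0.91; Tiparp (0.36) and Arnt (0.33) turned to -0.41 and -0.43 without scaling factors.

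Whether the members vary with Tiparp among libraries of one genotype was tested on log2 CPM after the genotype mean was taken away. Over 10 pairs of member and set, 0 passed after Benjamini-Hochberg adjustment in two-sided permutation tests (100000 permutations within genotype). The closest was Arnt in fat at 1 h, with Pearson's r of 0.503 (permutation p = 0.0489, adjusted p = 0.489) and Spearman's rho of 0.455 (permutation p = 0.0728, adjusted p = 0.579) over 18 libraries. Without the 2 libraries farthest from the median of Tiparp, r was 0.287. Cyp1b1, the other member called at 6 h, had r of 0.160 (permutation p = 0.642, adjusted p = 0.819) and rho of 0.112 (permutation p = 0.744, adjusted p = 0.922) with Tiparp over the 12 libraries of 6 h. Nqo1 had r of 0.349 and Arnt of 0.277 in quadriceps (adjusted p = 0.551 for both).

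Over all genes, the patterns most like that of Tiparp with the genotype mean taken away were found by Pearson's r, as a description. In quadriceps (20 libraries) these were Fbxo11 (r = 0.823), Slc45a4 (0.791), Tpp2 (0.771) and Snx9 (0.769). In fat at 1 h (18 libraries) they were Tcf20 (0.927), Ash1l (0.892), Rasd1 (0.891) and Yy1 (0.885). In fat at 6 h (12 libraries) they were Lrp6 (0.889), Tmem150a (0.866), Tor1a (0.857) and Map3k5 (0.856). No gene was among the closest 4 in more than 1 set, and no member was among them. The 95th percentile of r over all genes compared was 0.492, 0.634 and 0.525, and the genes share library and depth with Tiparp.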

How the data were processed

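Libraries were made with a kit that reads transcripts from the 3′ end (QuantSeq FWD, per the labels' protocols), with molecular identifiers for quadriceps and pgWAT at 1 h and with the standard kit at 6 h. The authors deposited raw counts per gene, without normalization. STAR 2.7.10, cutadapt 1.18, UMI-tools 1.1.2 and bcl2fastq 2.20.0.422 are named in the submitters' processing notes, as are the builds GRCm39 and GRCm38. Which build belongs to which table, the counting, its strand setting and whether identifiers were collapsed are not given in the sources used here.

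Rows that are no gene (5, 5 and 121) were left out. Gene rows held 73.31% to 76.53%, 62.89% to 69.99% and 99.75% to 99.82% of a library's counts. Symbols came from the table of 6 h, joined on the gene identifier, for 52338 of 55414 genes in the other tables. Samples were grouped by title; for TG quadriceps 10 the treatment entry differs from the title, which was followed.

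Each set was fitted over all its genes with edgeR 4.0.16 in R 4.3.3 (filterByExpr, TMM, robust quasi-likelihood fit, Benjamini-Hochberg, threshold 0.05), as were the tissue comparison and the interactions. The filter asked for about 10 counts in a library of median size, 8.36, 5.50 and 0.933 CPM. It kept 3, 5 and 5 members. The fits and permutation tests were tested on simulated data. Alternatives were DESeq2 1.42.0, RLE scaling, no filter, a block on replicate number, the remainder of the library number divided by 8, and left-out libraries. Leaving out the libraries of 1 h whose liver or duct transcripts exceeded 5 times the set's median, and the tissue comparison without scaling factors, were chosen after seeing the data.

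The members, lists and tests were chosen with earlier results of these data known. All members are named. Of each other list, those past the threshold whose mean reached 5 CPM are named, at most the 4 with the smallest p per comparison. For likeness to Tiparp, the 4 highest r per set are named, among tested genes whose mean reached 5 CPM and whose symbol is no predicted model. Some results under this rule are not reported here.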

Additional observations from a re-analysis of the deposited data

Results flagged for a closer look

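Cyp1b1 in WT library 9 of pgWAT at 1 h stood apart from its group, at 78.5 CPM against a group median of 31.9 and a next value of 50.2 CPM. This library was one of those that held liver or duct transcripts. The gap to the next library took 0.539 of the range of the 9 libraries, above Dixon's critical value of 0.493. Over 26 groups of member and genotype checked this was the single case, and chance gives about 1 in 20. The difference of Tiparp between genotypes itself differed between sets, by 1.11 on the log2 scale (SE 0.17) between pgWAT at 6 h and at 1 h, and by 0.92 (SE 0.18) between quadriceps and pgWAT at 1 h. Tiparp was picked for its genotype difference, so these are descriptions. Kit and time coincide in the former, and tissue and clamp in the latter.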

How the results depend on the processing

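The number of genes called in pgWAT at 1 h was 8 and moved to 19 with DESeq2, 5 with no filter on low counts, 5 with the replicate block, 3 with a factor for the library number's remainder and 1 without the 9 libraries that held transcripts of other organs; Tiparp, Ahr, Arnt and Cyp1b1 were called under none of these, nor was Nqo1 under the 4 of them that gave it a value. The count of the interaction of quadriceps and pgWAT at 1 h was 30 and moved to 55 with DESeq2 and 16 with no filter. In the tissue comparison, library totals with no scaling factors turned Tiparp to -0.41, Arnt to -0.43 and Ncoa3 to -0.14. Replicate numbers did not pair the samples: same-numbered libraries had a median correlation of -0.01, -0.06 and 0.02, over 0.1 in 3 of 10, 4 of 9 and 1 of 6 pairs. With the replicate block 144, 5 and 1874 genes were called, and Tiparp was at 1.15 in quadriceps, 0.25 at 1 h and 1.35 at 6 h. The block ended the calls of Parp12 and Adprhl2 (adjusted p = 0.0805 and 0.0786 in edgeR), of Parp14 between the times (0.0665) and of Arnt between tissues (0.0925), and RLE scaling that of Nfe2l2 (0.0518) and of Arnt (0.0675). The filter on low counts kept Ahrr and Cyp1a1 out of all fits that used it, and Ahr and Cyp1b1 out of that of the genotypes in quadriceps.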
